A study of Homo sapiens with 5 samples.

Results

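The imprinted genes of 11p15.5 were described here by their H3K9me3 peaks. Trimethylation of histone H3 at lysine 9 (H3K9me3) is a mark of silenced chromatin. The genes are 8 chosen by symbol for their place in this region, H19, IGF2, INS, ASCL2, KCNQ1, KCNQ1OT1, CDKN1C and PHLDA2, out of 59679 RefSeq genes on chromosomes 1 to 22, X and Y. All 8 were found in the RefSeq gene table of GRCh38. They lie on chromosome 11 between 1.9 and 3.2 Mb, and this interval held 14 peaks: 6 of 24665 in the EV list, 5 of 12650 in the KD list and 3 of 14362 in a list whose name gives no genotype.

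Imprinted genes are expressed mainly from the allele of one parent. At 11p15.5 they form a pair of neighbouring domains, each with its own control region, where DNA methylation differs between the maternal and the paternal allele. Beside H19 the paternal allele is methylated, and on the maternal allele the insulator protein CTCF binds and keeps distal enhancers from IGF2. At the promoter of KCNQ1OT1 the maternal allele is methylated, and on the paternal allele KCNQ1OT1 is transcribed as a long non-coding RNA that acts in cis to silence genes around it. Methylated control regions of imprinted genes are known to carry H3K9me3 as well. Errors at these regions are known from the growth disorders Beckwith-Wiedemann and Silver-Russell syndrome.

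H3K9me3 was measured in HEK293T, an established human embryonic kidney cell line, by sequencing of immunoprecipitated chromatin (ChIP-seq). The labels give 5 libraries, H3K9me3 libraries with the genotypes WT, EV and KD and 2 input libraries without antibody with the genotypes WT and EV. EV was read as cells with an empty vector, and KD as the cells that the design names KCNQ1OT1_K KD. The sources used here do not say what the letter K stands for, which knockdown reagent was used or whether the cells were a clone. No input is labelled KD, and which control, if any, was used to call the KD peaks is not stated. The input libraries were not analysed here. The list without a genotype, called the unlabelled list below, was not assigned to a sample, so its values are printed beside the others and enter no comparison between conditions.

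With 1 library per group there was no replicate check and no test between EV and KD. The files hold peaks and no reads, so the depth is unknown, and a place without a peak is a place where the caller reported none and not a place shown to lack the mark. RNA was not measured in these files, so neither the level of KCNQ1OT1 nor the identity of the cells was checked. Over all chromosomes KD had 0.513 times as many peaks as EV, and the unlabelled list lay between them in number. Fold enrichment and −log10 p are the authors' values and rank a peak only within its own list.

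Promoter sequences were printed for the members that the RefSeq promoter table (GRCh38.p14) holds, H19 and INS. IGF2, ASCL2, KCNQ1, KCNQ1OT1, CDKN1C and PHLDA2 have no entry there. The sequences of H19 and INS are shown because H19 was the member whose annotated start was covered in both EV and KD. INS lies in the same domain with no peak near it. Each runs 5′ to 3′ on the minus strand, from 250 bases before to 50 after the annotated start, with CpG dinucleotides in capitals. H19 is at chr11:2001217-2001516 and INS at chr11:2161160-2161459.
H19: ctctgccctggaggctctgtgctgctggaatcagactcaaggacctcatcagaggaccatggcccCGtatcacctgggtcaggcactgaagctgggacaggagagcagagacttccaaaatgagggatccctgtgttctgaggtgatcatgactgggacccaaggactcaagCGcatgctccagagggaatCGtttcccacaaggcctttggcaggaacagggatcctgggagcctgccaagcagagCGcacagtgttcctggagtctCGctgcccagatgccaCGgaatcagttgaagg
INS: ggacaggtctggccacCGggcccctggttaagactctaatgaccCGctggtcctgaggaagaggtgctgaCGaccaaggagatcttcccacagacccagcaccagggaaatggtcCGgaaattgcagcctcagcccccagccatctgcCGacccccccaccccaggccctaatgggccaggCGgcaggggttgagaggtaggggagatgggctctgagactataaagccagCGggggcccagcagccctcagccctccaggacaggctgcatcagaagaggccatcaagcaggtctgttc
The H19 window holds 6 CpG and the INS window 7, against a median of 14 over the 35116 promoters of the table. The H19 window lies at the outer end of a RefSeq model that includes transcripts beginning upstream of the usual start. It may therefore not be the usual H19 promoter. Promoters covered by a peak had a median of 22 CpG in EV and 26 in KD, so the covered H19 window was poorer in CpG than most covered promoters.

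At the start of KCNQ1OT1, the RNA named in the design, KD had a peak and neither EV nor the unlabelled list had one. It lay at 2698828 to 2700605, across the annotated 5′ end at 2699994, and reached a −log10 p of 11.2 at 5.17-fold enrichment. The control region was represented by a window of 2.5 kb on both sides of that end. This window was covered to 35.6% in KD, and its distance to the nearest peak was 57.9 kb in EV and 58.6 kb in the unlabelled list. Of the 8 members, 1 had a peak within 1 kb of its annotated start in EV (H19). In KD 2 had one (H19 and KCNQ1OT1) and in the unlabelled list 0. Of the 35116 starts in the promoter table, 2.96% had one in EV, 2.08% in KD and 0.675% in the unlabelled list. A peak within 1 kb of a start in KD with none in EV was found at 0.715% of those starts, and the reverse, EV without KD, at 1.59%. The KCNQ1OT1 peak was stronger by −log10 p than 89.8% of KD peaks, higher in fold enrichment than 91.7% and wider than 74.1%. The other 4 KD peaks of the interval were weaker than it, and exceeded between 0.933% and 42.6% of their list.

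**Figure D1:**
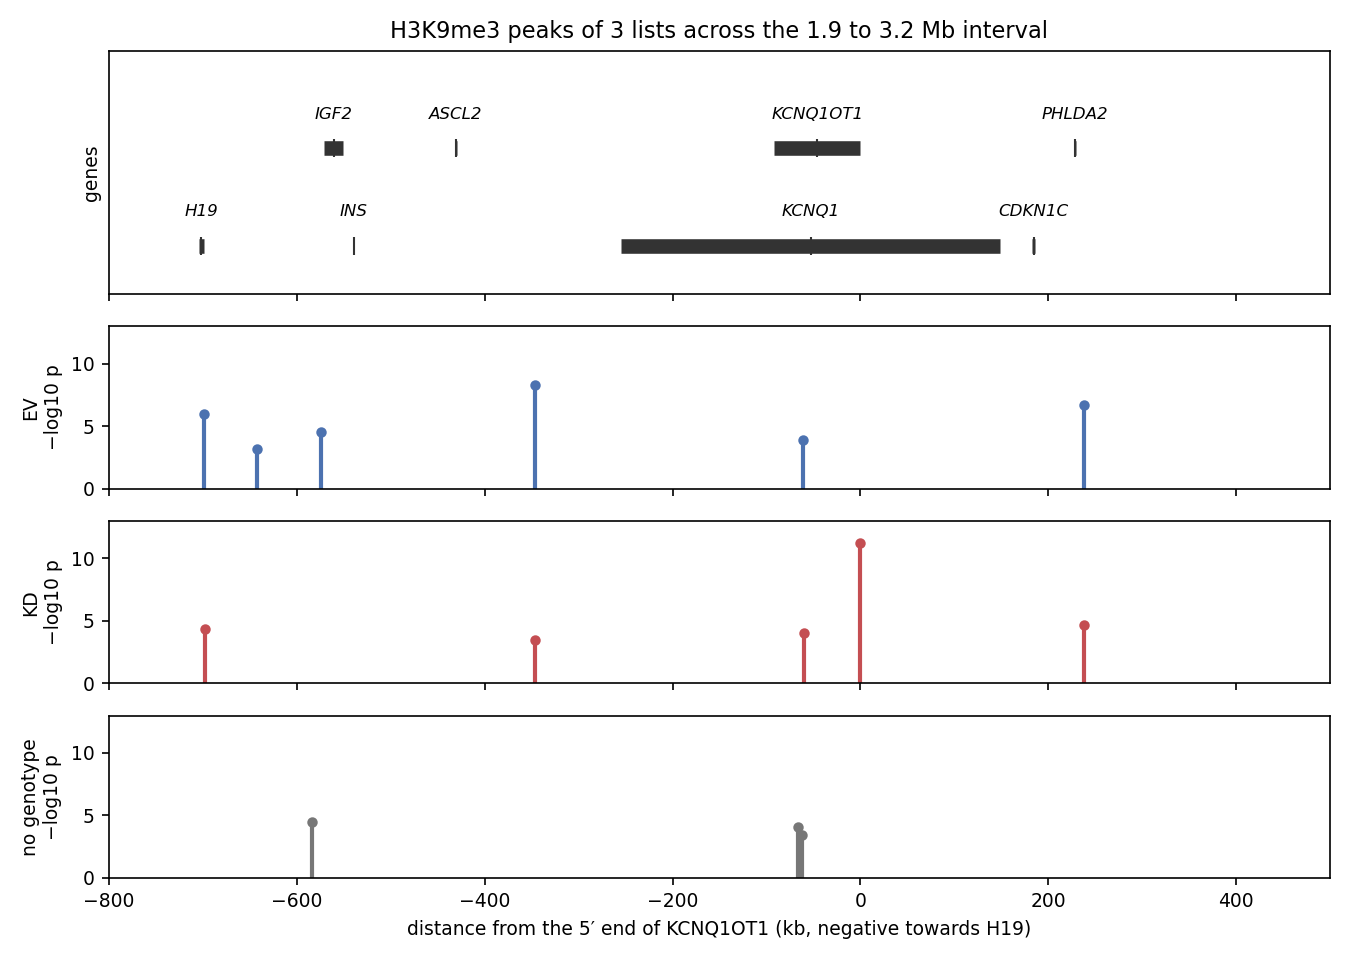
Peaks of the 3 lists across the interval, with the 8 genes on top. The horizontal axis is the distance in kb from the 5′ end of KCNQ1OT1, each stem is 1 peak at its centre, and its height is the authors' −log10 p on a linear axis within that list. The tallest KD stem, 11.2, stands at the KCNQ1OT1 start, where the other rows are empty.

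KD peaks at least as strong as the KCNQ1OT1 peak numbered 1296, itself included. No EV peak overlapped 6 of these, against 1557 of all 12650 KD peaks. The 6 were set side by side. The strongest lay in LINC01191 and LINC02992, overlapping non-coding genes of chromosome 2, with a −log10 p of 16.1. TENM3, which encodes a teneurin adhesion protein of neurons, had one of 12.5 and GRK1, which encodes rhodopsin kinase, one of 11.3. The remaining pair lay outside genes on chromosomes 5 and 17. At 1778 bp the KCNQ1OT1 peak was the widest of the 6, and the others spanned 324 to 993 bp. The unlabelled list overlapped 1 of the 6, the one on chromosome 17, against 45.5% of all KD peaks. The 6 were picked for having no EV partner, so this is not a like comparison.

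By the promoter table, KD peaks of at least this strength covered the promoters of 6 genes whose promoters no EV peak covered. These were LOC124901807, LINC01191, LINC02992, TMEM30B, SYNM and TRIM71. TMEM30B encodes a subunit of lipid flippases, SYNM the intermediate filament protein synemin and TRIM71 an RNA-binding repressor of early development. At LOC124901807, TMEM30B, SYNM and TRIM71 an EV peak overlapped the same KD peak but did not reach the promoter. At LINC01191 and LINC02992, as at KCNQ1OT1, no EV peak touched the KD peak. Over the table as a whole, 0.419% of promoters were covered in KD and not in EV.

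Deep inside KCNQ1OT1 all 3 lists had peaks, and none of these overlapped another. The EV peak lay at 2639061 to 2639569, the KD peak at 2639581 to 2640150, and the unlabelled list had peaks at 2633639 to 2634649 and 2637875 to 2638848. These 4 peaks fell within a stretch of 6.51 kb, which is 7.10% of the gene, between 59.8 and 66.4 kb downstream of its start. EV and KD were 11 bp apart, and the unlabelled list ended 212 bp before the EV peak. The peaks were weak in their lists, exceeding 31.6% of EV peaks and 20.9% of KD peaks by −log10 p, and 44.9% and 3.70% for the unlabelled list. Counting a peak within 1 kb as a partner joined the EV and KD peaks here, and the number of EV peaks of the interval found in KD then rose from 3 to 4.

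Over its whole body of 91.7 kb, KCNQ1OT1 was covered to 0.555% in EV, 1.89% in KD and 2.17% in the unlabelled list. The covered bases lay at the start and in the inner stretch in KD, and in the inner stretch alone in EV and the unlabelled list. All 4 inner peaks had a −log10 q between 1.14 and 1.83, so with a minimum of 2 the cover was 0% in EV, 1.27% in KD and 0% in the unlabelled list. KCNQ1, which encodes a potassium channel of heart and inner ear, surrounds KCNQ1OT1 on the opposite strand. Its 404 kb were covered to 0.126% in EV, 0.581% in KD and 0.491% in the unlabelled list. Every one of these peaks lay in KCNQ1OT1 or across its start, and apart from the 611 bp of the KD start peak that reach beyond KCNQ1OT1, the 312 kb of KCNQ1 outside it held no peak in the 3 lists. Among genes of at least 100 kb, 56% had a peak in EV, 28.6% in KD and 25.4% in the unlabelled list. The nearest peak to the start of KCNQ1 itself was 90.6 kb away in EV, 90.9 kb in KD and 189 kb in the unlabelled list.

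**Figure D2:**
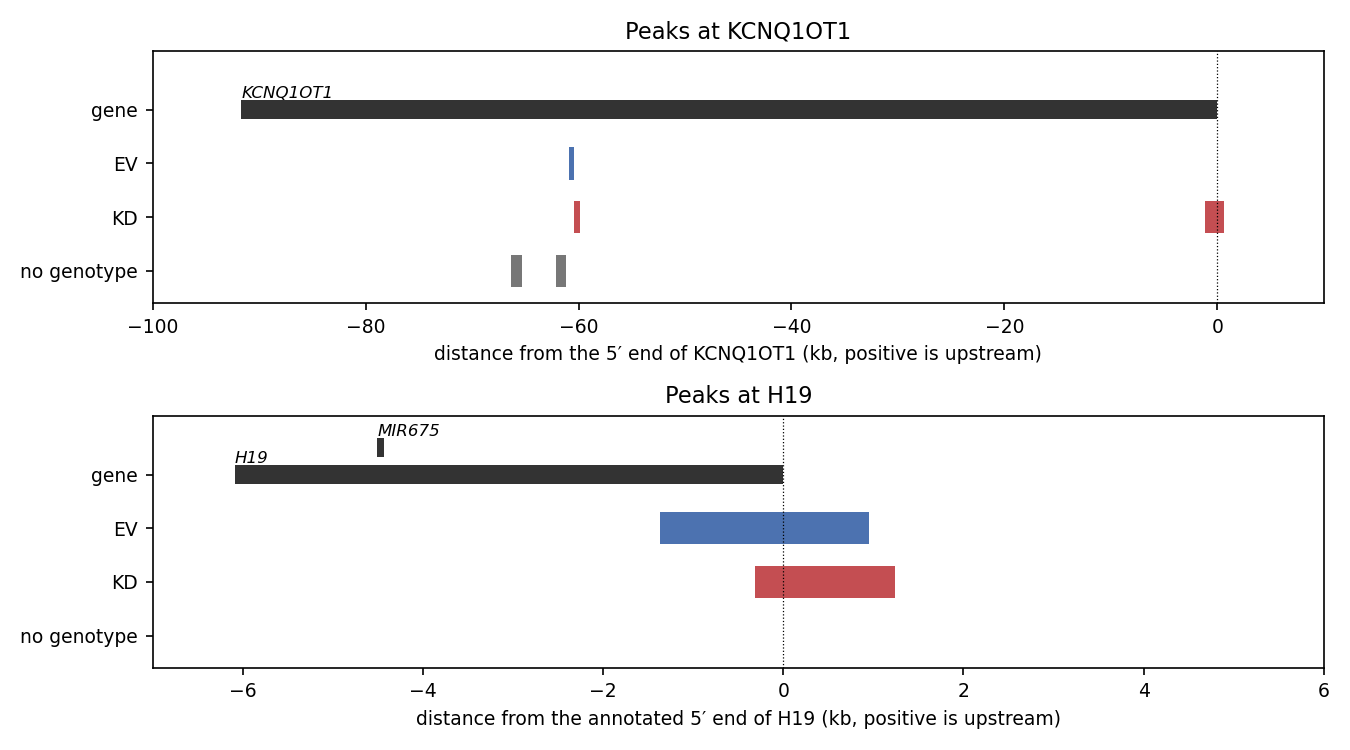
Peaks at KCNQ1OT1 (top) and at H19 (bottom), drawn to scale as bars, 1 row per list. The horizontal axes give the distance in kb from the annotated 5′ end of each gene, with upstream to the right. KD alone has a bar at the KCNQ1OT1 start, and EV and KD both have a bar across the annotated H19 start.

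At H19, a non-coding RNA of the maternal allele, both EV and KD had a peak across the annotated 5′ end at 2001266, and the nearest peak of the unlabelled list was 115 kb away. The EV peak lay at 1999899 to 2002217 at 3.25-fold enrichment and a −log10 p of 5.98, stronger than 66.3% of its list. The KD peak lay at 2000955 to 2002505 at 3.58-fold enrichment and a −log10 p of 4.35, stronger than 33.4% of its list. They shared 1263 bp, which was 54.5% of the EV peak and 81.4% of the KD peak. KD began 1056 bp nearer to the start than EV and ended 288 bp farther upstream. A peak within 1 kb of the start in both EV and KD was found at 1.36% of all starts, and the 300 base promoter was covered in both at 0.686% of promoters. The KD peak had a −log10 q of 1.904, and with a minimum of 2 it was lost while the EV peak stayed.

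The covered share of H19 was 22.5% in EV, 5.12% in KD and 0% in the unlabelled list. A cover of at least 10% of the body was thus reached by 1 of the 8 members in EV and by 0 in KD and the unlabelled list. Over all genes this held for 2.66% in EV, 1.27% in KD and 0.969% in the unlabelled list. This measure depends on which side of the start is counted. In the 5 kb upstream of the start, which stand for the control region of H19 and IGF2, EV peaks covered 19.04% and KD peaks 24.8%, in the opposite order. In a window of 5 kb on both sides, chosen after the data were seen, EV covered 23.2% and KD 15.51%. The RefSeq model of H19 includes transcripts that begin upstream of its usual start, so the upstream window may hold only part of the control region. MIR675, the microRNA within H19, lay 3.07 kb from the EV peak and 4.12 kb from the KD peak, and neither covered it. The long RefSeq model of MRPL23, a mitochondrial ribosomal protein gene, also spans these peaks.

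IGF2, which encodes a fetal growth factor, and INS, which encodes insulin, had no peak in their bodies in any list. The EV list had a peak at 2125271 to 2125982, 3.13 kb beyond the 3′ end of IGF2, at 2.44-fold enrichment and a −log10 p of 4.52. A second EV peak stood alone between H19 and IGF2 at 2057312 to 2058435, at 2.88-fold enrichment and a −log10 p of 3.15. These peaks exceeded 47.2% and 5.45% of EV peaks by −log10 p. The lowest −log10 p of any KD peak was 3.31, above that of the second EV peak. Over all chromosomes 37.7% of EV peaks were overlapped by KD. KD had no peak near either place, at 123 and 54.8 kb. The unlabelled list had one at 2116078 to 2116379, 12.7 kb from IGF2 and 8.89 kb from the EV peak. It was 302 bp wide, narrower than 96.3% of its list, at 3.79-fold enrichment and a −log10 p of 4.49. INS was farther from any peak, at 33.8 kb in EV, 157 kb in KD and 43.4 kb in the unlabelled list.

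ASCL2, a transcription factor of trophoblast, had no peak in any list. Its nearest peak was 82.5 kb away in EV, 82.8 kb in KD and 152 kb in the unlabelled list. In EV and KD this was a peak within CD81-AS1, an antisense neighbour of CD81. The EV peak there was the strongest of its list in the interval, above 79.8% of all EV peaks. The KD peak there lay wholly inside the EV peak, spanned 701 of its 1393 bp, and was stronger than only 0.933% of KD peaks. The centres of both were 13 bp apart.

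CDKN1C and PHLDA2, which restrain growth of fetus and placenta and are silenced on the paternal allele, carried no peak in any list. CDKN1C encodes a cyclin-dependent kinase inhibitor, and its nearest peak was 52.2 kb away in EV, 52.2 kb in KD and 244 kb in the unlabelled list. PHLDA2 encodes a small pleckstrin homology protein, and its nearest peak was 8.54 kb away in EV, 8.55 kb in KD and 289 kb in the unlabelled list. EV and KD had this peak between PHLDA2 and NAP1L4, a histone chaperone gene, with edges that differed by 7 and 21 bp and 96.7% of the joint span in common. It was the closest match of the EV and KD lists in the interval. The KCNQ1OT1 start peak of KD lay 183 kb from CDKN1C and 228 kb from PHLDA2.

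In sum over the members, a peak in the body was found for 3 of 8 in EV, 3 of 8 in KD and 2 of 8 in the unlabelled list. The members were H19, KCNQ1 and KCNQ1OT1 in EV and KD, and the last 2 of these in the unlabelled list, and KCNQ1 and KCNQ1OT1 share their peaks. Over all genes the shares were 13.2% in EV, 6.14% in KD and 4.58% in the unlabelled list. The exact Clopper-Pearson 95% interval of 3 of 8 runs from 8.52% to 75.5% and covers counting error only. It takes the 8 genes as independent draws, which genes chosen by name and sharing peaks are not. It was therefore not compared with the share over all genes. Peaks were more often found in long genes, so 1 of the 6 members of 1 to 25 kb in EV and KD stood against 7.67% and 3.91% of all genes of that length. Among 23 other genes of 11p15.5, 19 of which lie in the interval, MRPL23 and CD81-AS1 carried peaks in both EV and KD. The peaks of MRPL23 were those at H19. None of the 23 carried a peak in the unlabelled list. The 21 genes without a peak include TH, CD81, TSSC4, TRPM5, KCNQ1DN, SLC22A18, NAP1L4, CARS1 and OSBPL5.

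EV and KD shared 3 places in the interval, at H19, CD81-AS1 and between PHLDA2 and NAP1L4. These were 3 of 6 EV peaks, with an exact interval of 11.8% to 88.2%, against 37.7% of all EV peaks, and 3 of 5 KD peaks, with 14.7% to 94.7%, against 87.7% of all KD peaks. None of the 3 peaks of the unlabelled list overlapped an EV or KD peak here, where 50.2% and 35.6% of its peaks did over all chromosomes. Of the EV peaks 0 of 6 and of the KD peaks 0 of 5 were overlapped by the unlabelled list, against 24.7% and 45.5% over all chromosomes. In the flanks these were 5 of 49 and 7 of 24. With so few peaks the exact upper limits of the shares in the interval were 45.9% for EV and 52.2% for KD, and both lie above the share over all chromosomes.

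**Figure D3:**
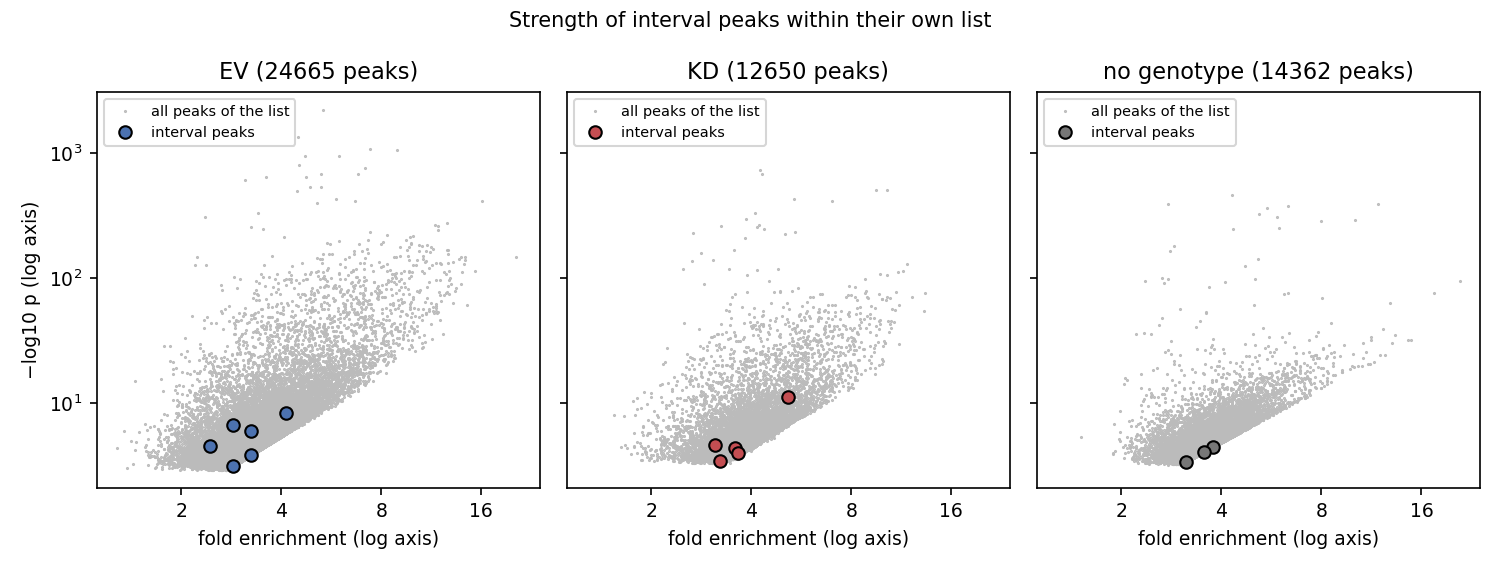
Fold enrichment (horizontal) and −log10 p (vertical) of every peak, both on log axes, 1 panel per list, with the interval's peaks as large circles. The KD peak at the KCNQ1OT1 start, at 5.17 and 11.2, is the highest of the 5 KD circles on both axes. The EV circles lie above between 5.45% and 79.8% of their list by −log10 p.

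The interval was then set against its flanks, 5 Mb above it and the 1.9 Mb that remain below it to the chromosome end. EV had 4.62 peaks per Mb in the interval, 13.7 in the lower and 4.60 in the upper flank. KD had 3.85, 5.79 and 2.60, and the unlabelled list 2.31, 4.21 and 1.40. The interval thus had fewer peaks per Mb than the lower flank in every list, and the upper flank was level with it in EV and lower in KD and the unlabelled list. Covered length followed the same order, with 0.529% of the interval in EV, 0.418% in KD and 0.176% in the unlabelled list. Among 2235 windows of 1.3 Mb that hold a gene, the median was 6 peaks in EV and 2 in KD and in the unlabelled list. The 5 KD peaks of the interval exceeded the number in 82.0% of these windows and equalled it in 4.97%. The 6 EV peaks exceeded it in 45.4% and equalled it in 9.49%, and the 3 of the unlabelled list in 66.0% and 12.6%. At a −log10 q of at least 2, KD kept 2 peaks in the interval.

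The KD/EV ratio of peak number was 0.833 in the interval, with an exact interval of 0.201 to 3.28, and 0.490 in the flanks. Without the peak at the KCNQ1OT1 start it was 0.667. The ratio of covered length was 0.790 with that peak and 0.532 without it, against 0.542 in the flanks and 0.408 over all chromosomes. The peak was picked from these data and had no EV partner, so leaving it out had to lower both ratios. EV peaks without a KD partner were kept, so the values without it are not a like comparison with the flanks. The strongest peaks nearby lay outside the interval, in EV and KD at the same place 4569 kb above it, with a −log10 p of 262 and 113. Within the interval the highest −log10 p was 8.28 in EV, 11.2 in KD and 4.49 in the unlabelled list.

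**Figure D4:**
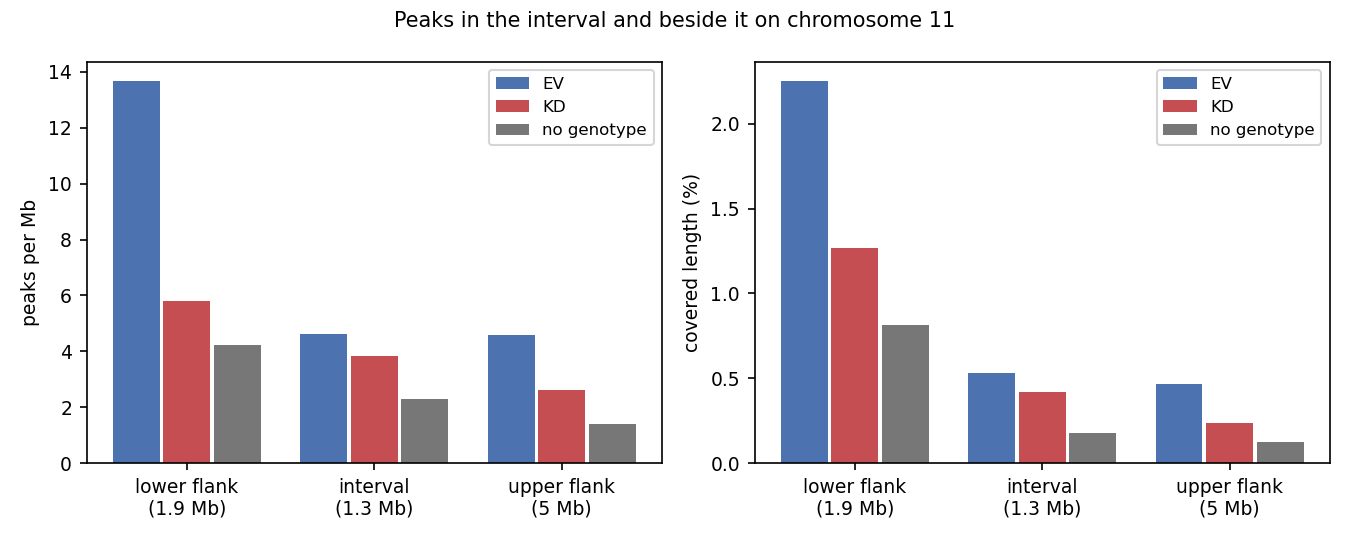
Peaks per Mb (left) and covered length in percent (right) in the lower flank, the interval and the upper flank, as bars from 0 with 1 colour per list and no error bars, as there is 1 list each. The lower flank is highest in every list, with 13.7 peaks per Mb in EV.

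Other imprinted genes were given beside these for scale. Of 7 genes of the Prader-Willi locus, 4 had a peak in EV, 3 in KD and 3 in the unlabelled list. Of 31 genes elsewhere, 16, 14 and 4 had one. Over all genes the shares were 13.2%, 6.14% and 4.58%, and among genes of at least 100 kb 56%, 28.6% and 25.4%. Several of the listed genes are that long, and some overlap each other and share a peak, so the counts are not of separate places. The joint span of the Prader-Willi genes was covered to 8.38% in EV, 0.379% in KD and 3.81% in the unlabelled list. That of the 11p15.5 members had 0.429%, 0.607% and 0.453%. Most of the Prader-Willi cover lay in SNHG14, with 62731 of 68485 bp in EV and 25759 of 31089 bp in the unlabelled list. The median per Prader-Willi gene was 2.17% in EV and 0% in KD and the unlabelled list. For the 11p15.5 members it was 0% in every list. Single genes are given for the 4 with the highest cover in any list. NNAT, which encodes neuronatin, was covered to 63.7% in EV and 12.6% in KD. AIRN, which like KCNQ1OT1 is an imprinted antisense RNA, had 12.3% in EV and 47.5% in KD. MAGEL2 of the Prader-Willi locus had 36.5% in EV and DIRAS3 19.4%, both with 0% in KD. Of these 4, AIRN had more cover in KD than in EV and the others had less. The 4 were picked by their highest cover and do not stand for the lists. Among the genes not named, some also had more cover in KD than in EV and others had less. In the unlabelled list each had 0%. These lists were chosen by name and the differences between them were not tested.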

How the data were processed

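Reads were aligned with Bowtie2 and peaks called with MACS2 on GRCh38, per the submitters' processing notes. Versions, options, control libraries and pooling are not stated there. The deposited lists hold, for each broad peak, the authors' fold enrichment (a ratio), −log10 p, −log10 q and a whole-number score, which repeats −log10 q times 10. The lowest −log10 q on the chromosomes used was 1.008 in EV, 1.01 in KD and 1.02 in the unassigned list. The EV and KD lists were matched by name, and the remaining one was not assigned.

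Peaks on chromosomes 1 to 22, X and Y were used, counted from 1. Overlap meant at least 1 bp. Covered bases were computed in Python 3.11.15 with numpy 2.4.6 and pandas 2.3.3. The functions gave the counts of bedtools 2.31.1 in a test with generated regions placed on and between EV peaks. Exact intervals came from scipy 1.17.1 and plots from matplotlib 3.10.9. Gene positions and promoters are RefSeq's (GRCh38.p14), and strands outside the promoter table are textbook knowledge. SLC22A18 is listed as SLC67A1. The control regions are not in these tables and were replaced by windows at the starts.

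All 8 members were named, and other genes of the region where a peak overlapped them or as examples without one. Of the other imprinted genes, the 4 with the highest cover in any list were named, and SNHG14 for its share of the covered bases. The members, lists and settings were chosen with earlier results of these data known. Alternatives were −log10 q of at least 2, fold enrichment of at least 3, equal peak numbers (12650 per list), merging within 3 kb, and other windows, flanks and overlaps.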

Additional observations from a re-analysis of the deposited data

How the results depend on the processing

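With a window 2 times as wide, the KCNQ1OT1 start still had a peak in KD and none in EV. A −log10 q of at least 2, a fold enrichment of at least 3 and equal peak numbers gave the same, but this was fixed in advance. Such settings only remove peaks, so they could not place one in EV. The KD peak, with a −log10 q of 8.29 and 5.17-fold enrichment, passes both cut-offs, and 12650 is the whole KD list. Of the 72 recomputed values for EV and KD that describe the comparison, 60 stayed within 1.5 times the reported one and 12 moved further. Values that could not have moved are among the 60. At a −log10 q of at least 2, members with a peak in EV fell to 1, KD kept 2 peaks in the interval over 0.201% of its length and 0 at the H19 window, its peaks per Mb over those of the flanks went from 1.11 to 0.624, and shared peaks fell to 1 in EV and 1 in KD. At a fold enrichment of at least 3, EV had 3 peaks in the interval over 0.325%. With equal peak numbers EV had 3 peaks over 0.349% and 1 member with a peak. These settings leave fewer peaks by construction. The unlabelled list had 1 peak in the interval at a −log10 q of at least 2. No paired analysis was possible because each group has 1 library. Depth is unknown, so missing peaks are limited by it to an extent that was not tested.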
